A study of Mus musculus with 65 samples.

Results

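The positions of YY1 and LDB1 on chromatin were compared in untreated LDB1-AID cells, a subline of the mouse erythroblast line G1E-ER4. The comparison covered the consensus ChIP-seq peaks of both proteins on chromosomes 1 to 19 and X. It held 12816 YY1 peaks and 10729 LDB1 peaks, which together are 23545 of the 143195 peaks in the 8 peak lists analysed. Peaks of the 2 proteins that overlapped by 1 bp or more formed the shared class. The other peaks were called YY1 only or LDB1 only.

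The series has 65 samples in 29 groups, and each list used here is 1 group. In LDB1-AID cells LDB1 is fused to an auxin-inducible degron, which lets added auxin send the protein to degradation, so the untreated cells carry the tag as well. The untreated LDB1, YY1, RAD21 and CTCF lists and the LDB1 list after 4 h of auxin each combine 2 replicates of this subline. Untreated SMC3-AID cells, in which the cohesin subunit SMC3 carries the tag, gave an LDB1 list and a RAD21 list, and SMC3-AID cells after 4 h of auxin gave an LDB1 list. These combine 3 replicates each. G1E-ER4 cells lack the endogenous Gata1 gene and carry GATA1 fused to an estrogen receptor domain, and the labels do not give an induction state or say whether a subline is 1 clone. The replicates had been combined in each list, all peaks were 400 bp wide, and no list gave a height, a read count or a score. No value below therefore has an error between replicates, depth is unknown, and no test over samples was possible. Intervals are 95% intervals for counting error only, and peaks are not replicates.

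YY1 is a zinc finger protein that binds DNA at many promoters and enhancers, and it can pair with itself and hold such elements together. LDB1 does not bind DNA by itself. It is brought to GATA and E-box sites by GATA1, TAL1 and LMO2 in erythroid cells, where it associates with itself and holds enhancers near promoters, best known at the beta-globin genes. RAD21 is a subunit of cohesin, the ring complex that extrudes chromatin loops, and CTCF binds DNA at the sites where extruding cohesin stops.

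Most peaks of either protein stood without the other. YY1 lay on 2190 LDB1 peaks, which is 20.4% (19.7 to 21.2) of them, and 8539 LDB1 peaks (79.6%) had no YY1. Seen from YY1, 2192 peaks or 17.1% (16.5 to 17.8) carried LDB1, and 10624 (82.9%) did not. These made 2193 overlapping pairs, because 3 LDB1 peaks touched 2 YY1 peaks each and 1 YY1 peak touched 2 LDB1 peaks. Counted as sites, with a shared pair taken as 1 site, there were 21353, of which 10.3% held both proteins, 49.8% YY1 only and 40.0% LDB1 only.

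At shared sites the peak midpoints lay close together but seldom coincided. The absolute distance between the midpoints had a median of 120 bp (112 to 126), with the middle 50% of pairs between 55 and 208 bp. It was 190 bp when gaps of up to 1 kb counted as shared. With the 1 bp rule it was at most 50 bp in 512 pairs (23.3%), at most 100 bp in 951 (43.4%) and at most 200 bp in 1613 (73.6%), and it was 0 in 11 pairs. A distance of 0 was also rare for LDB1 peaks of LDB1-AID and SMC3-AID cells that overlapped (108 of 7192). The same held for their RAD21 peaks (144 of 14378). YY1 showed no side relative to the plus strand: its midpoint lay at the higher coordinate in 1093 pairs and at the lower coordinate in 1089. The orientation of genes or motifs was not used here.

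**Figure D1:**
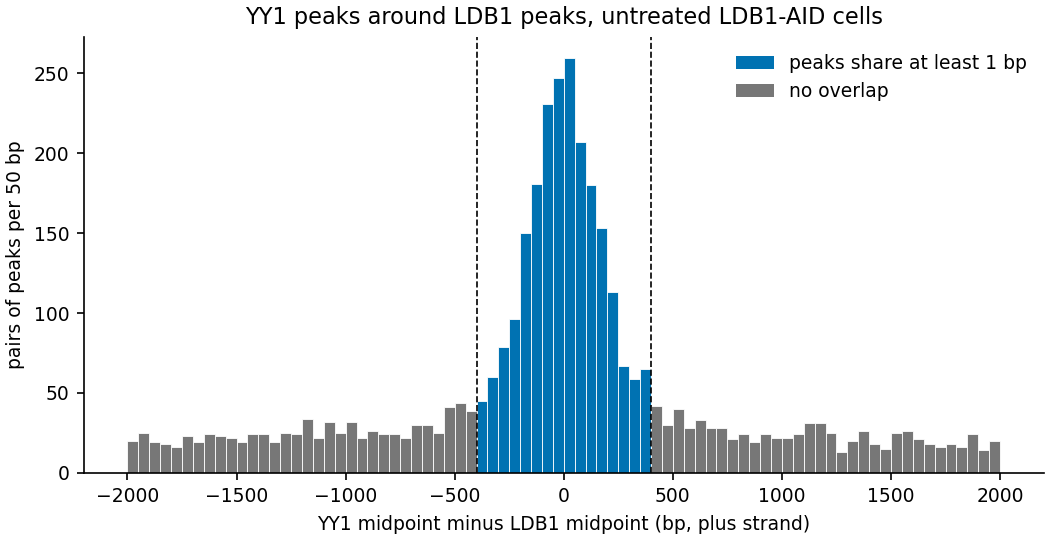
Position of YY1 midpoints relative to LDB1 midpoints within 2 kb (x axis, bp on the plus strand) as the number of peak pairs per 50 bp (y axis), with overlapping pairs in blue and others in gray. The counts were highest next to 0 and fell on both sides, and the dashed lines mark the overlap rule.

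The overlap rule cut through a falling slope and not through a gap. Ordered by the nearest YY1 midpoint, 940 LDB1 peaks lay within the first 100 bp, 664 in the next 100 bp, then 359 and 227, and outside the rule 145, 124, 102 and 73. Between 1900 and 1999 bp the count was 49. In the last 50 bp inside the rule there were 109 LDB1 peaks, and in the first 50 bp outside it, from 400 bp on, there were 77.

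The distance between YY1 and LDB1 was larger than that between 2 lists of the same protein. LDB1 peaks of LDB1-AID and SMC3-AID cells that overlapped had a median distance of 25 bp (7192 LDB1 peaks of LDB1-AID cells took part), and RAD21 peaks of the same sublines had 34 bp (14378). For RAD21 peaks on CTCF the median was 55 bp (26833). LDB1 peaks on RAD21 had 83 bp (78 to 86, 2697 peaks), which is nearer than LDB1 to YY1. Both proteins lay farther from CTCF where they overlapped it, with 168 bp for YY1 (160 to 178, 2190 peaks) and 192 bp for LDB1 (181 to 209, 794 peaks). YY1 peaks on RAD21 had 138 bp (132 to 142, 3540 peaks). The distance between YY1 and LDB1 hardly moved with the other proteins, at 121 bp with RAD21 on the LDB1 peak and 119 bp without, and at 132 bp with CTCF and 119 bp without.

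Where 1 RAD21 peak overlapped both peaks of a shared pair, the RAD21 midpoint was more often on the LDB1 side. This was measured in 892 pairs. The median distance was 75.5 bp from RAD21 to LDB1 and 120 bp from RAD21 to YY1, and RAD21 was nearer to LDB1 in 566 pairs, nearer to YY1 in 319 and equally far in 7. That is 64.0% (60.7 to 67.1) nearer to LDB1 among untied pairs. RAD21 lay between the 2 midpoints in 291 pairs (32.6%). In the 716 pairs without CTCF the share nearer to LDB1 was 66.2% (62.6 to 69.6), and in the 176 pairs with CTCF it was 54.9% (47.5 to 62.0), whose interval includes 50%. CTCF itself was nearer to LDB1 in 83 pairs and nearer to YY1 in 98.

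LDB1 peaks of other lists mostly fell nearer to the LDB1 midpoint of a shared site than to its YY1 midpoint. The LDB1 peak of untreated SMC3-AID cells was nearer to LDB1 in 1327 of 1613 pairs and nearer to YY1 in 273, with medians of 26 and 112 bp. The LDB1 peaks left after auxin in LDB1-AID cells gave the same order, nearer to LDB1 in 284 pairs and to YY1 in 90 (medians 38 and 99 bp, 377 pairs). The median distance between YY1 and LDB1 was 114.5 bp where an LDB1 peak was also present after auxin and 121 bp where it was not.

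Shared LDB1 peaks carried cohesin more often than LDB1 only peaks. RAD21 lay on 25.1% of all LDB1 peaks. It was at 966 of 2190 shared peaks, or 44.1% (42.0 to 46.2), and at 1731 of 8539 LDB1 only peaks, or 20.3%. The difference was 23.8 percentage points (21.6 to 26.1), and the order held on 20 of 20 chromosomes. With the RAD21 list of untreated SMC3-AID cells, which has 15223 peaks against 33160 in LDB1-AID cells, the shares were 9.27% and 3.53%, a difference of 5.74 points (4.53 to 7.08). CTCF lay on 7.4% of all LDB1 peaks, at 9.91% of shared and 6.76% of LDB1 only peaks, 3.15 points apart (1.85 to 4.57), with the same order on 18 of 20 chromosomes. That difference was 1.91 points when overlaps had to cover 50% of both peaks and 8.93 points when gaps of up to 1 kb counted.

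YY1 peaks also carried RAD21 more often where LDB1 was present, but CTCF less often. RAD21 lay on 27.6% of all YY1 peaks. It was at 930 of 2192 shared YY1 peaks, or 42.4% (40.4 to 44.5), and at 2610 of 10624 YY1 only peaks, or 24.6% (23.8 to 25.4), a difference of 17.9 points (15.6 to 20.1). This order held on 20 of 20 chromosomes. With the RAD21 list of SMC3-AID cells the shares were 8.99% and 7.79%, and the interval of the difference, 1.19 points (-0.0494 to 2.56), included 0. CTCF lay on 17.1% of all YY1 peaks, at 213 shared peaks (9.72%, 8.55 to 11.0) and at 1977 YY1 only peaks (18.6%, 17.9 to 19.4). The difference was -8.89 points (-10.3 to -7.39), with the same order on 19 of 20 chromosomes, and it was -4.98 points with 50% overlap of both peaks.

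Split by both proteins, the classes differed more in cohesin without CTCF than in cohesin with CTCF. RAD21 without CTCF was at 34.7% of shared YY1 peaks and 11.5% of YY1 only peaks, whereas RAD21 with CTCF was at 7.76% and 13.1%. For LDB1 peaks, RAD21 without CTCF was at 36.1% of shared and 16.0% of LDB1 only peaks, and RAD21 with CTCF at 7.99% and 4.24%. Neither RAD21 nor CTCF was found at 55.6% of shared and 69.9% of YY1 only peaks, and at 54.0% of shared and 77.2% of LDB1 only peaks. Among YY1 peaks without CTCF, RAD21 was at 38.4% of 1979 shared and 14.1% of 8647 YY1 only peaks. Among YY1 peaks with CTCF the values were 79.8% of 213 and 70.2% of 1977. Peak height was not in the lists, and its part in these differences was not tested.

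**Figure D2:**
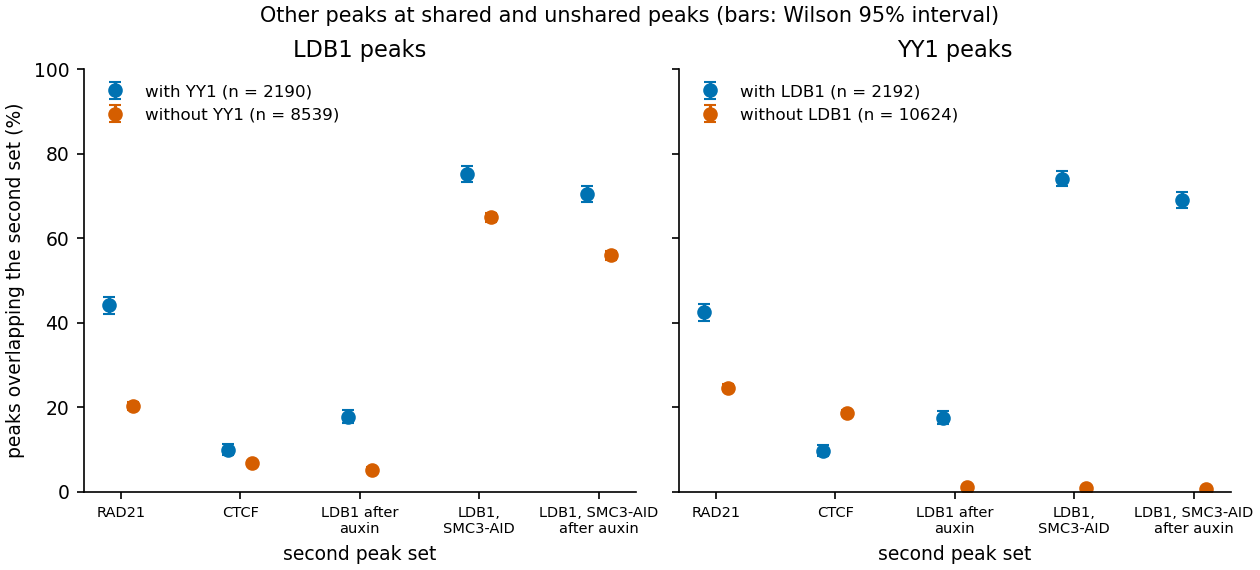
Share of peaks that overlap a second list (y axis, %) for LDB1 peaks (left) and YY1 peaks (right), split into peaks with the other protein (blue) and without it (orange), with Wilson 95% intervals. RAD21 was higher in the shared class on both sides, at 44.1% against 20.3% and at 42.4% against 24.6%, while CTCF at YY1 peaks was lower, at 9.72% against 18.6%.

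From the side of cohesin, the 6327 RAD21 peaks without CTCF held the 2 proteins far more often than the 26833 RAD21 peaks with CTCF. Without CTCF, 748 (11.8%) had both, 1326 (21.0%) LDB1 without YY1, 1121 (17.7%) YY1 without LDB1, and 3132 (49.5%) neither. With CTCF, 198 (0.738%) had both, 429 LDB1 without YY1, 1487 (5.54%) YY1 without LDB1, and 24719 (92.1%) neither. In both groups LDB1 was more frequent where YY1 was present. Its share was 40.0% (37.8 to 42.3) with YY1 and 29.7% (28.4 to 31.1) without YY1 at RAD21 peaks without CTCF, and 11.8% (10.3 to 13.4) and 1.71% at RAD21 peaks with CTCF.

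Within overlapping pairs the RAD21 share of LDB1 peaks stayed in a narrow range whatever the distance between the midpoints. RAD21 was at 43.9% of LDB1 peaks with YY1 at 0 to 50 bp, 45.3% at 51 to 100 bp, 43.7% at up to 200 bp and 43.8% at over 200 bp with overlap. Beyond the rule it was at 33.7% (191 of 567) at 400 to 1000 bp, 24.5% at 1 to 5 kb, 18.9% at 5 to 25 kb and 16.6% beyond 100 kb. In this RAD21 list, LDB1 peaks with YY1 close by but not overlapping thus lay between the shared peaks and the distant ones. The RAD21 list of untreated SMC3-AID cells did not show this. Its share was 7.62% to 10.7% in the overlapping bins, 8.82% at 400 to 1000 bp and 3.09% at 1 to 5 kb. In the RAD21 list of LDB1-AID cells, the share at YY1 peaks did not fall steadily with distance. Next to the rule it was below the shares at 1 to 100 kb and above the share beyond 100 kb. RAD21 was at 38.3% of YY1 peaks that overlapped LDB1 at over 200 bp and at 21.4% (133 of 622) at 400 to 1000 bp. It was at 25% at 1 to 5 kb, 28.5% at 5 to 25 kb, 25.4% at 25 to 100 kb and 18.7% beyond 100 kb. The CTCF share of YY1 peaks went from 9.15% in the overlapping bin over 200 bp to 14.1% at 400 to 1000 bp, 19.7% at 25 to 100 kb and 18.9% beyond 100 kb.

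**Figure D3:**
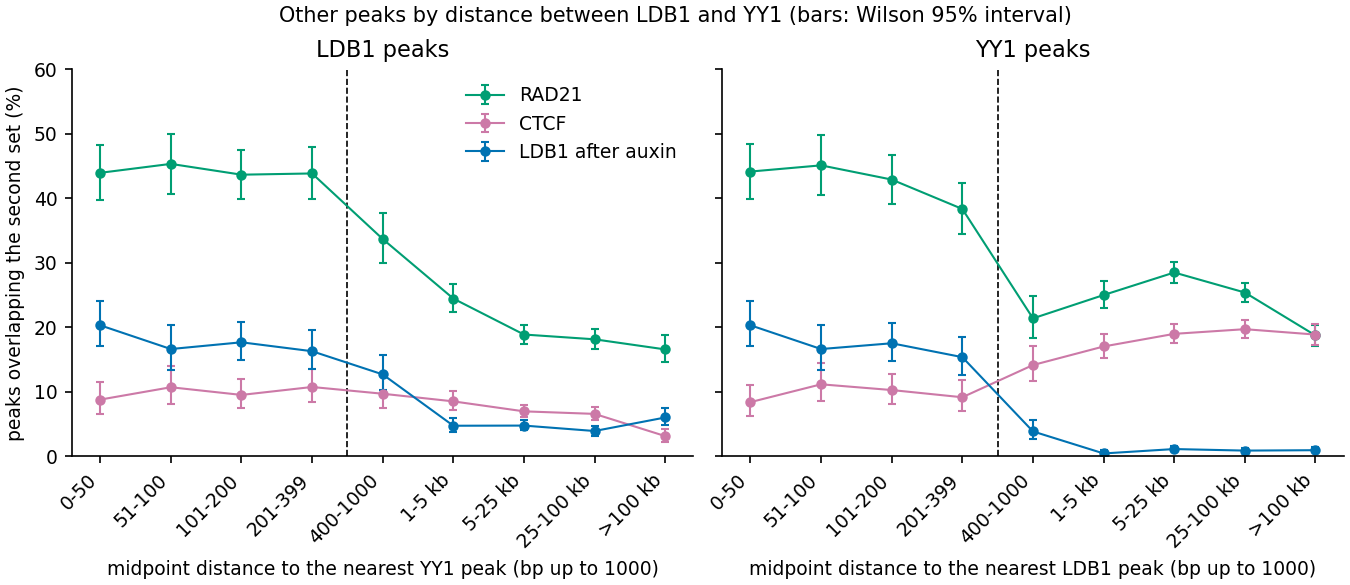
Share of LDB1 peaks (left) and YY1 peaks (right) that overlap RAD21, CTCF or an LDB1 peak left after auxin (y axis, %) by the distance to the nearest peak of the other protein (x axis), with Wilson 95% intervals and a dashed line at the overlap rule. RAD21 at LDB1 peaks was between 43.7% and 45.3% in the 4 overlapping bins and 33.7% in the next one.

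LDB1 peaks that carried YY1 were found again more often in other LDB1 lists. An LDB1 peak was present after auxin in LDB1-AID cells at 7.77% of all untreated LDB1 peaks, at 388 shared peaks (17.7%) and at 446 LDB1 only peaks (5.22%), a difference of 12.5 points (10.9 to 14.2). The difference was 14.0 points (10.8 to 17.2) among LDB1 peaks with RAD21, where the shares were 27.4% and 13.5%, and 6.92 points (5.30 to 8.77) among those without RAD21, where they were 10.05% and 3.13%. In SMC3-AID cells, an untreated LDB1 peak was at 67% of all LDB1 peaks, at 75.3% of shared and 64.9% of LDB1 only peaks. After auxin in SMC3-AID cells the share was 59% of all, 70.5% at shared and 56.0% at LDB1 only peaks. Among the LDB1 peaks not found in untreated SMC3-AID cells, 9.04% of shared and 2.14% of LDB1 only peaks had an LDB1 peak after auxin in LDB1-AID cells. For the auxin-treated SMC3-AID list the same peaks gave 10.5% and 9.22%, and the interval of the difference, 1.30 points (-1.25 to 4.33), included 0. Among the LDB1 peaks found in untreated SMC3-AID cells that difference was 8.89 points (7.06 to 10.6).

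Few YY1 only peaks overlapped the other LDB1 lists, which the class rule largely sets. YY1 only means no overlap with an untreated LDB1 peak of LDB1-AID cells. Of the 8585 untreated LDB1 peaks of SMC3-AID cells, only 1366 were absent from that list. Of the 1043 LDB1 peaks after auxin in LDB1-AID cells, only 207 were absent from it. LDB1 after auxin lay on 496 YY1 peaks (3.87% of all), of which 114 were YY1 only. Its share was 17.4% of shared and 1.07% of YY1 only peaks. For untreated SMC3-AID cells the share was 13.4% of all, with 74.1% of shared and 0.828% (88) of YY1 only peaks, and after auxin there it was 12.3% of all, with 69.1% and 0.631%. YY1 only peaks with an LDB1 peak at 400 to 1000 bp had an LDB1 peak of SMC3-AID cells in 57 of 622 cases (9.16%).

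The few LDB1 peaks left after auxin carried YY1 more often than the untreated list. YY1, measured in untreated cells, was at 497 of 1043 of them, or 47.7% (44.6 to 50.7), against 20.4% of untreated LDB1 peaks. Among them, 836 lay on an untreated LDB1 peak and had YY1 at 395 (47.2%). The other 207 lay on no untreated LDB1 peak and had YY1 at 102, or 49.3% (42.5 to 56.0), RAD21 at 72 (34.8%) and CTCF at 32 (15.5%). With YY1 at those 102, the median distance between the LDB1 midpoint and the YY1 midpoint was 142.5 bp and the nearest untreated LDB1 peak was at a median of 24.4 kb. Of the 102, 13 had one within 1 kb. The 105 without YY1 were much alike, with a median of 24.4 kb and 9 within 1 kb. The YY1 list after auxin was not analysed here.

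In SMC3-AID cells the YY1 share was 19.95% of 8585 untreated LDB1 peaks and 21.8% of 7237 after auxin, so the 2 lists of that subline differed little. LDB1 peaks present at both times had YY1 at 22.7% of 6715, those present in the untreated list alone at 10.1% of 1870 (8.82 to 11.6), and those present after auxin alone at 12.4% of 523 (9.87 to 15.5). LDB1 peaks of SMC3-AID cells with no LDB1 peak in LDB1-AID cells had YY1 at 55 of 1366, or 4.03% (3.11 to 5.20). The YY1 list comes from LDB1-AID cells, so the subline and the LDB1 peak strength cannot be told apart here.

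Unshared YY1 peaks had a shorter median distance to LDB1 than CTCF or RAD21 peaks without LDB1. The median distance of YY1 only peaks to the nearest LDB1 midpoint was 27.0 kb (25.9 to 28.0), with quartiles of 6.85 and 80.9 kb. Within 1 kb were 622 (5.85%), within 5 kb 2202 (20.7%), within 25 kb 5136 (48.3%) and within 100 kb 8409 (79.2%). RAD21 peaks without LDB1 had a median of 42.7 kb and CTCF peaks without LDB1 54.8 kb, and YY1 only peaks were nearer than either on 20 of 20 chromosomes. RAD21 peaks with neither LDB1 nor CTCF were nearer to LDB1 than YY1 only peaks, at 21.1 kb (20.01 to 22.4). The distances were also taken to only the LDB1 peaks found in both sublines, a shorter list, for all peaks that overlapped none of these. The medians were then 41.3 kb for YY1 peaks, 59.5 kb for RAD21, 76.2 kb for CTCF and 31.1 kb for RAD21 without CTCF, in the same order. YY1 only peaks with RAD21 but no CTCF had the shortest median among the 4 combinations, 18.9 kb (16.8 to 20.6, 1222 peaks), against 28.0 kb with both, 31.2 kb with CTCF alone and 28.2 kb with neither.

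LDB1 only peaks were nearer to YY1 than the reverse. Their median distance to the nearest YY1 midpoint was 18.6 kb (17.8 to 19.4), with quartiles of 5.41 and 54.8 kb. YY1 was within 1 kb of 567 (6.64%), within 5 kb of 2023 (23.7%), within 25 kb of 4878 (57.1%) and within 100 kb of 7326 (85.8%). The order held on 19 of 20 chromosomes, and the YY1 list is the longer one. The medians were 14.5 kb for LDB1 only peaks with RAD21 alone, 12.6 kb with RAD21 and CTCF, 13.2 kb with CTCF alone and 19.9 kb with neither.

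**Figure D4:**
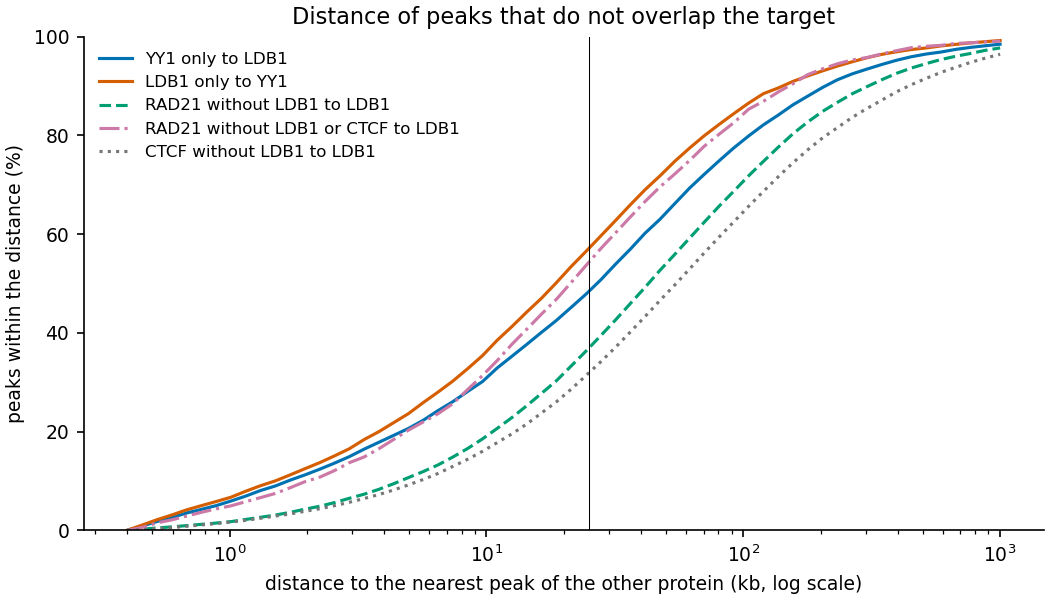
Cumulative share of peaks (y axis, %) within a given distance of the nearest peak of the other protein (x axis, kb, log scale), for peaks that do not overlap it. At 25 kb (vertical line) the share was 57.1% for LDB1 only to YY1 and 48.3% for YY1 only to LDB1, and to LDB1 it was 54.5% for RAD21 without LDB1 or CTCF and 36.9% for all RAD21 without LDB1.

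Chromosome X stood apart from the 19 autosomes in both overlap and distance. On X, 19 of 195 LDB1 peaks carried YY1, or 9.74% (6.33 to 14.7), while the autosomes ranged from 17.1% on chromosome 13 to 23.2% on chromosome 7. Of 226 YY1 peaks on X, 8.41% (5.45 to 12.8) carried LDB1, against 13.8% on chromosome 17 to 19.7% on chromosome 3. YY1 only peaks on X had a median distance to LDB1 of 97.3 kb, against 20.2 to 34.3 kb on the autosomes, and LDB1 only peaks had 78.1 kb to YY1, against 13.1 to 27.8 kb. RAD21 and CTCF peaks without LDB1 were also farther from LDB1 on X, at 107 and 155 kb, than on any autosome, where the highest values were 49.4 and 67.7 kb. Both lists were sparser on X, with a median distance to the next peak of the same protein of 43.5 kb for YY1 and 27.0 kb for LDB1. The distance between the midpoints of shared pairs was 106 bp on X and 96 to 142 bp on the autosomes, so X lay inside the autosomal range for that measure.

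Shared peaks had nearer neighbours of their own protein than unshared ones by the median and within 25 kb, but hardly differed within 1 kb. The next LDB1 peak was at a median of 11.0 kb (9.98 to 11.9) from shared LDB1 peaks and 16.2 kb (15.6 to 16.9) from LDB1 only peaks. Another LDB1 peak lay within 25 kb of 68.7% and 60.7%, a difference of 7.99 points. For YY1 the medians were 11.6 kb (10.6 to 13.2) and 15.6 kb (15.0 to 16.4), and the shares within 25 kb were 67.1% and 61.1%, a difference of 6.06 points. Within 100 kb the differences were 3.81 points for LDB1 and 3.82 for YY1. Within 1 kb the shares were 2.56% of shared and 2.51% of LDB1 only peaks. For YY1 they were 5.11% of shared and 5.80% of YY1 only peaks, the other way round. Very close neighbours were more frequent in the YY1 list, where 728 peaks (5.68%) had another YY1 peak within 1 kb, than in the LDB1 list, with 270 (2.52%).

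Sites of 1 kind had neighbours of the same kind more often than the mix of sites. The nearest other site of a shared site was again a shared site in 326 cases, or 14.9% (13.5 to 16.4), while shared sites are 10.3% of all sites. YY1 only sites had a YY1 only site nearest in 55.9%, against 49.8% of all sites, and LDB1 only sites an LDB1 only site in 47.0%, against 40.0%. The median distance to the nearest site of any kind was 5.46 kb from shared sites, 8.87 kb from YY1 only sites and 8.12 kb from LDB1 only sites.

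Joining neighbouring sites within 25 kb gave 9873 chains, of which 5164 were single sites. Shared sites occurred in 1744 chains, which also held 21.4% of YY1 only sites and 26.5% of LDB1 only sites. In 1830 chains both proteins occurred with no shared site, and these held 30.8% of YY1 only and 34.6% of LDB1 only sites. YY1 alone made 3760 chains with 47.8% of YY1 only sites, and LDB1 alone made 2539 chains with 39.0% of LDB1 only sites. The share of sites that were shared was 6.74% (6.09 to 7.46) among single sites, 9.31% in chains of 2, 11.0% in chains of 3 to 4, 12.8% in chains of 5 to 9 and 14.1% (12.4 to 15.9) in chains of 10 to 24. Of the 120 chains with 10 or more sites, 89 (74.2%) held a shared site, against 1744 of all 9873 chains. A chain with more sites holds a shared one more often even at an equal share per site.

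The chain with the most shared sites lay on chromosome 12, at chr12:78157757-78201112 in mm9, the build that the submitters' processing notes name. It spans 43.4 kb with 19 sites, of which 6 were shared, 6 YY1 only and 7 LDB1 only. The shared pairs were spread over the region with midpoints 20 to 392 bp apart (median 110.5). In the closest pair LDB1 was at chr12:78200713-78201112 and YY1 at chr12:78200693-78201092, and in the loosest pair LDB1 was at chr12:78168081-78168480 and YY1 at chr12:78168473-78168872. RAD21 lay on 3 of the 6 shared LDB1 peaks and CTCF on 1. The region held 2 LDB1 peaks after auxin, at chr12:78186120-78186519 and chr12:78193276-78193675. Each overlapped both a YY1 peak, with midpoints 233 and 145 bp apart, and an untreated LDB1 peak, 281 and 305 bp apart, although those 2 untreated LDB1 peaks did not reach the YY1 peak.

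There were 5 shared sites in each of 5 further chains, and the first by chromosome were on chromosomes 1 and 2. The region chr1:36927301-37000940 (73.6 kb) had 12 sites, with 5 shared, 2 YY1 only and 5 LDB1 only. All 5 shared LDB1 peaks there were found in untreated SMC3-AID cells, 2 carried RAD21, and 1, at chr1:36977010-36977409 with YY1 131 bp away, had an LDB1 peak after auxin. The region chr2:169952986-170053226 (100.2 kb) had 22 sites and leaned to YY1, with 13 YY1 only sites against 4 LDB1 only sites. Its 5 shared pairs had midpoints 41 to 360 bp apart, 2 carried RAD21 on the LDB1 peak, 1 was found in untreated SMC3-AID cells, and none had an LDB1 peak after auxin.

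The longest chains of 1 protein, by number of sites, had fewer sites than the 3 regions above. The longest of YY1 alone, chr15:102775525-102864920 (89.4 kb), had 8 YY1 peaks, 4 with RAD21 and 1 with CTCF. The longest of LDB1 alone, chr18:62270511-62345862 (75.4 kb), had 9 LDB1 peaks, 3 with RAD21 and 0 with CTCF, and 7 of the 9 were found in untreated SMC3-AID cells. The most isolated YY1 peak was chrX:82819108-82819507, 7.82 Mb from the nearest LDB1 peak, and the most isolated LDB1 peak was chr3:46147348-46147747, 4.78 Mb from the nearest YY1 peak. Neither carried RAD21 or CTCF. No gene was assigned to these regions, since the gene table used here has another build.

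**Figure D5:**
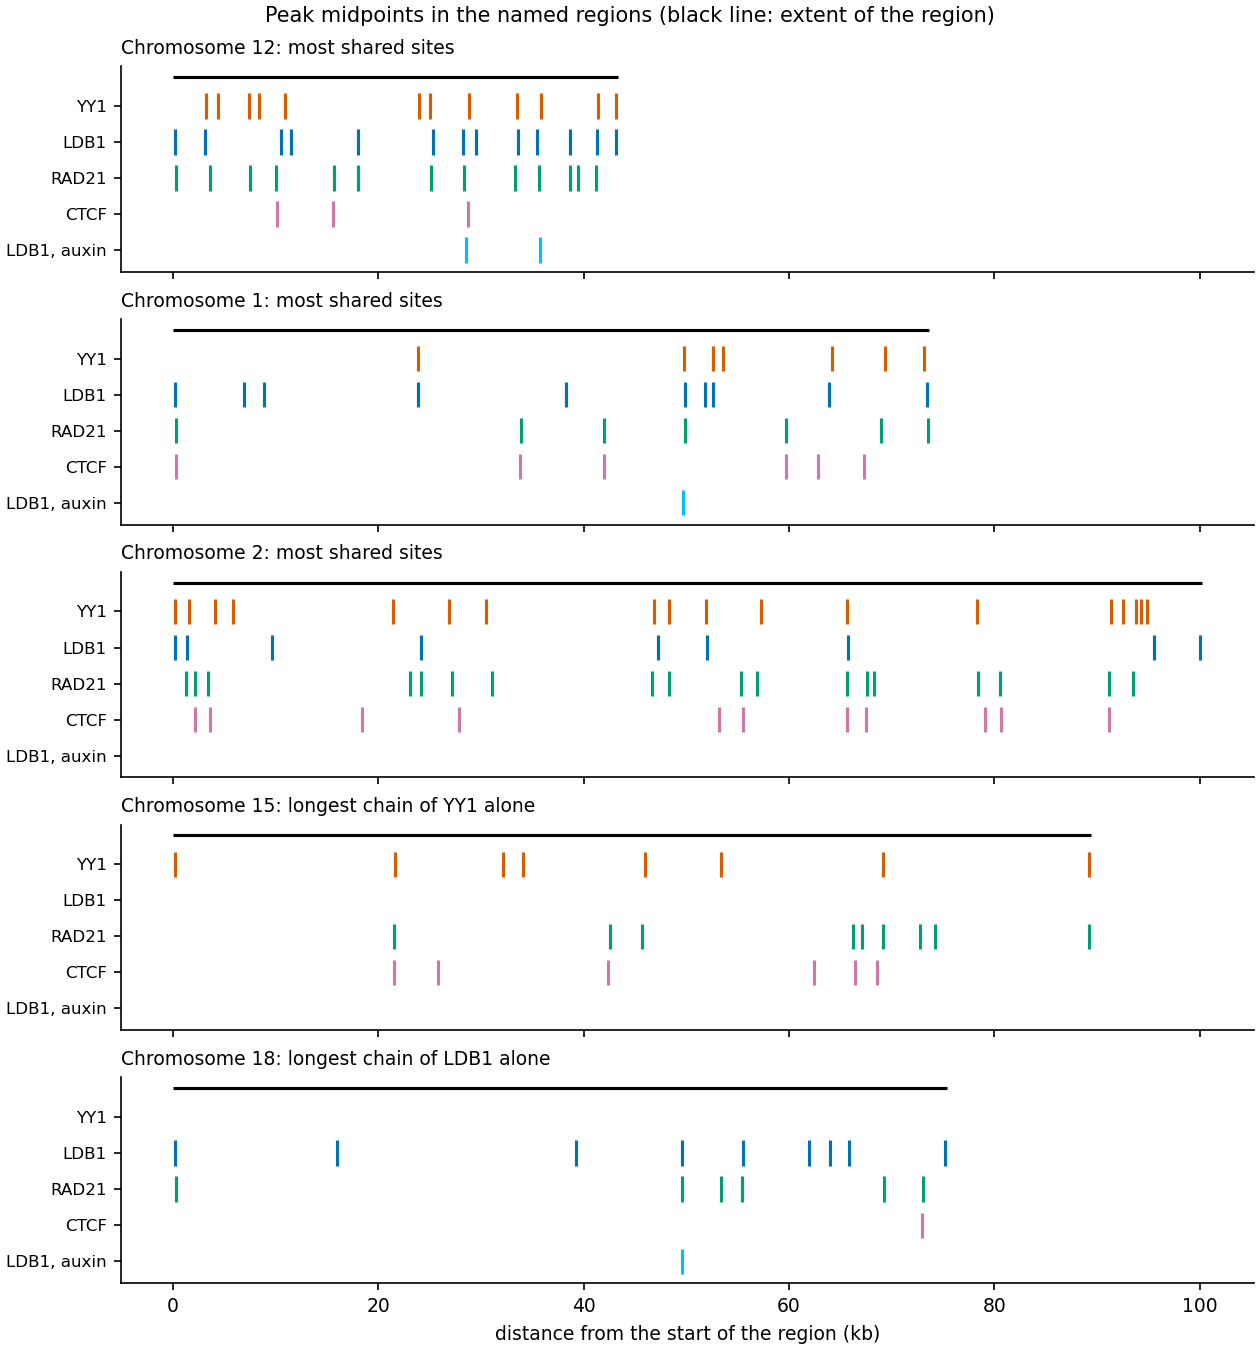
Midpoints of YY1, LDB1, RAD21, CTCF and auxin-treated LDB1 peaks (rows of ticks) by distance from the start of each region (x axis, kb) in the 3 chains with the most shared sites and the longest chains of YY1 alone and LDB1 alone. Ticks of YY1 and LDB1 stand together at the 6 shared sites on chromosome 12, and the chains on chromosomes 15 and 18 hold 8 YY1 and 9 LDB1 peaks.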

How the data were processed

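Per the submitters' processing notes, Bowtie2, deepTools 3.5.1, MACS2 2.2.9.1 and the mm9 build were used, with no roles. The lists deposited by the authors hold a chromosome, a start and an end per peak. Their values are positions in bp, with no signal, score or p-value, and the label of every replicate names the same list. The peak caller's settings and the consensus rule are not given in the sources used here.

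Overlaps of at least 1 bp and midpoint distances were computed with Python 3.11.15, pandas 2.3.3 and numpy 2.4.6, and overlap counts were tested on simulated data and checked against bedtools 2.31.1. Coordinates are counted from 1. Shares have Wilson 95% intervals, differences of shares Newcombe intervals in percentage points, and medians exact binomial intervals. Where a peak overlapped several, each pair of YY1 and LDB1 entered the distances once. For the other pairs of lists, each peak of the first list named entered once, with its nearest midpoint. The alternatives to the median midpoint distance used the nearest LDB1 midpoint of each YY1 peak. For the class shares by distance the nearest midpoint was used, so 400 bp or more means no overlap.

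Regions were named by a rule: the 3 chains of sites within 25 kb with the most shared sites (ties by chromosome and start), the longest chain of each protein alone, and the peak of each class farthest from the other protein. The comparison, the lists and the rules were chosen with earlier results of these data known. Alternatives were other overlap rules (50% of both peaks, midpoints within 500 bp, or 1 kb between the edges), leaving out X, no peaks below 3.1 Mb on chromosome 9, LDB1 peaks found in both sublines, merged peaks, edge distances and other distance limits. Those within classes of RAD21 or of the SMC3-AID list, and the RAD21 and CTCF distances to LDB1 peaks of both sublines, were added after the data were seen. Gene starts, sequences and motifs were not analysed here because the reference tables have another build.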

Additional observations from a re-analysis of the deposited data

Results flagged for a closer look

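Outside chromosomes 1 to 19 and X, on unplaced contigs and the mitochondrial genome, the untreated LDB1-AID lists held 17 YY1 peaks and 12 LDB1 peaks, which no comparison above used. Of these, 3 YY1 peaks overlapped 3 LDB1 peaks. The mitochondrial genome had 3 YY1 and 2 LDB1 peaks, and 0 of the 3 YY1 peaks overlapped LDB1. No control list was used for these peaks.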

How the results depend on the processing

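Of 112 alternative values for 21 results, 76 stayed close to the reported value and 36 moved. Close means inside the interval for counting error of the reported value, or within 1.5 times of it for a count of peaks. Only a difference between classes could change direction, and none of the 55 alternatives for such a difference did. Some settings hardly alter the lists, such as leaving out 2 YY1 and 2 LDB1 peaks of chromosome 9, so a close value there tests little. The counts of shared peaks stayed within 1.5 times, at 1613 to 3001 LDB1 and 1613 to 3094 YY1 peaks. The median midpoint distance of shared pairs, 120 bp, was 83 bp with 50% overlap, 130 bp with midpoints within 500 bp and 190 bp with a gap of at most 1 kb, which each rule limits by its own construction. With only the LDB1 peaks found in both sublines, a shorter list, YY1 peaks that overlapped none of them had a median distance of 41.3 kb. Of these YY1 peaks, 38.7% had such an LDB1 peak within 25 kb. Only 1650 YY1 peaks overlapped that shorter list, against 2192 in the main one, so some YY1 peaks called shared above entered here. Within 10 and 100 kb the shares were 30.8% and 79.2% for YY1 only and 36.2% and 85.8% for LDB1 only peaks. The difference in neighbours within 100 kb was 3.81 points for LDB1 and 3.82 for YY1. The RAD21 difference at LDB1 peaks was 20.4 points with 50% overlap, 26.6 with a gap of at most 1 kb, 5.74 with the RAD21 list of SMC3-AID cells and 20.7 among LDB1 peaks not found in SMC3-AID cells. At YY1 peaks it was 14.2 points with the gap and 1.19 with the SMC3-AID list. The CTCF difference was 1.91 points with 50% overlap and 8.93 with the gap at LDB1 peaks, and -4.98 at YY1 peaks with 50% overlap. For LDB1 after auxin the difference was 6.92 points without RAD21 and 6.90 among peaks not found in SMC3-AID cells, and for the auxin-treated SMC3-AID list it was 12.1 with the gap, 8.89 among LDB1 peaks found in untreated SMC3-AID cells and 1.30 among those not found. Except where stated, the cause was not tested. No paired analysis was possible because the replicates had been combined before deposit. Depth and peak height are unknown, so the lists cannot show how far unshared peaks are weak peaks of the other protein.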

Other observations

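The 11 shared pairs whose midpoints coincide were spread over 7 chromosomes, with RAD21 at 5, CTCF at 1, an LDB1 peak after auxin at 3 and an LDB1 peak of untreated SMC3-AID cells at 8. One of them, chr9:3020183-3020582, lies at the start of chromosome 9, where both YY1 peaks and both LDB1 peaks below 3.1 Mb were shared. Without that stretch, 102 of 206 LDB1 peaks seen after auxin alone carried YY1 (49.5%), against 49.3% with it. The autosomal YY1 peak farthest from LDB1 was chr17:95148956-95149355, at 6.27 Mb, and it was picked after its value was seen. These values are descriptions of single peaks, with no test.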
